A study of Sus scrofa with 9 samples.

Results

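Telomeres, the repeat-covered ends of chromosomes, are protected by shelterin, a complex of TERF1, TERF2, TERF2IP, POT1, TINF2 and ACD, and are lengthened by telomerase, whose catalytic subunit is TERT and whose RNA is stabilized by DKC1. RTEL1 is a helicase that opens telomeric loops, and CTC1 belongs to the CST complex, which fills in the complementary telomeric strand. Cultured mesenchymal cells have little or no telomerase activity, and telomere loss is a known route to cellular senescence. These 10 genes were chosen by symbol, and all 10 were present among the 18933 genes of the Obese-MSC and Lean-MSC data and among the 18992 genes of the vitamin-C data. The values are 5-hydroxymethylcytosine (5hmC) levels over exons, a mark that TET enzymes make from methylated cytosine, and are neither RNA nor telomere length.

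Mesenchymal stem/stromal cells (MSCs) came from subcutaneous abdominal fat of female domestic pigs, 3 months old at the start, which ate standard chow (Lean) or, in the Obese group, a diet rich in fat and fructose for 16 weeks. Cells were expanded in medium with platelet lysate. From passage 3, some Obese cultures received an added 50 µg/mL of vitamin-C, a cofactor of TET enzymes, for 48 h (Treated). The others received no added vitamin-C (Untreated). Per the paper, the growth medium itself contained vitamin-C at a lower level, so no group was free of it. With and without vitamin-C refer here to the added dose. Each group had 3 libraries of hMeDIP-seq, in which an antibody to 5hmC captures DNA fragments for sequencing, and they carry the numbers 7, 8 and 9 (Lean), 1, 2 and 3 (untreated Obese) and 4, 5 and 6 (treated Obese). Which treated and untreated cultures share an animal is not given in the sources used here, and the untreated Obese libraries serve in both comparisons.

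The values are normalized counts, apparently equalized between libraries, although the paper says only that edgeR processed them. Library totals lay between 494566 and 522269 in the first dataset and between 547242 and 593846 in the second. Low values clustered around whole multiples of a step of between 0.765 and 1.32 normalized counts, depending on the library, and 1 step may be about 1 read, which the sources used here do not state. The clustering was weakest in untreated Obese library 1 of the first dataset (step 0.765) and untreated Obese library 3 of the second (step 1.32). Numbers of steps are least certain there. In the Lean libraries between 870 and 1145 genes lay below 0.3 normalized counts, and in the untreated Obese libraries between 610 and 996. The labelled cell type could not be checked on this scale, as 5hmC over exons is not RNA. In Lean-MSCs the means of the MSC markers were 40.4 for ENG, 26.9 for NT5E and 17.1 for THY1, and those of markers that MSCs lack were 59.3 for PTPRC, 17.8 for CD34 and 0 for CD14. None of 15 cell type markers met the study's criteria in either comparison.

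TERT was the only 1 of the 10 genes called by the study's criteria between Obese-MSCs and Lean-MSCs, as high 5hmC, and its values were among the lowest of the 10. The paper had already named TERT as high 5hmC in Obese-MSCs from the same libraries, so this call is not independent of it. By Western blot, a measure of protein, the paper found TERT unaltered. The criteria were an unadjusted p-value of 0.05 or less in a two-sided test with equal variances, together with a limit on the ratio of group means. The ratio had to be 1.4 or more, or 0.7 or less. As recomputed here from the normalized counts, 4.5% of all genes met these criteria (2.07% as high). The paper reports more genes in each direction, so its counts were not reproduced. The reason was not tested. TERT had 3.12, 2.84 and 2.40 normalized counts in untreated Obese libraries 1, 2 and 3, or about 4, 3 and 2 steps. In Lean libraries 7, 8 and 9 it had 1.10, 0 and 0.00229, or about 1, 0 and 0 steps. Every Obese library was above every Lean library, and 11.8% of all genes likewise had groups that did not overlap (5.70% with Obese-MSCs above). The means were 2.79 ± 0.365 and 0.366 ± 0.632 (SD, n = 3 each). Both lie at or below 3 normalized counts, the level treated here as low, so no fold change is given.

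The p-value of the study's test for TERT was 0.00453 before adjustment over genes, and 6.04% of all genes were at or below 0.05 (n = 3 each, two-sided, equal variances; an exact permutation test over 20 arrangements gave 0.1, the smallest value it allows). Among the 2517 genes with both group means at 3 or less, 67 (2.66%) met the same criteria and 195 (7.75%) had groups that did not overlap. TERT lay below the upper 80% of genes by mean that limma was fitted to, and among those genes alone 0 of the 10 met the criteria. With no filter on low values, limma gave TERT a log2 difference of 1.56 ± 0.54 (SE), with an unadjusted p-value of 0.00916 and a Benjamini-Hochberg adjusted p-value of 0.695. Of the 15 cell type markers, 2 had groups that did not overlap in the same comparison, both with Obese-MSCs above, where 11.8% of all genes did not overlap. The MSC marker ENG lay between 52.0 and 67.4 normalized counts in the Obese and between 31.9 and 51.7 in the Lean libraries. The monocyte marker CD14 lay between 0.650 and 4.49 in the Obese libraries and was at 0 in each Lean library. Both CD14 means (2.02 and 0) were low in the sense used for TERT. Summed over the 3 MSC markers, the Obese libraries ran from 94.8 to 123 and the Lean libraries from 80.1 to 88.4, while the 3 markers that MSCs lack summed to 60.6 to 71.6 and 66.9 to 89.4. The part of these markers in the TERT result was not tested.

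**Figure D1:**
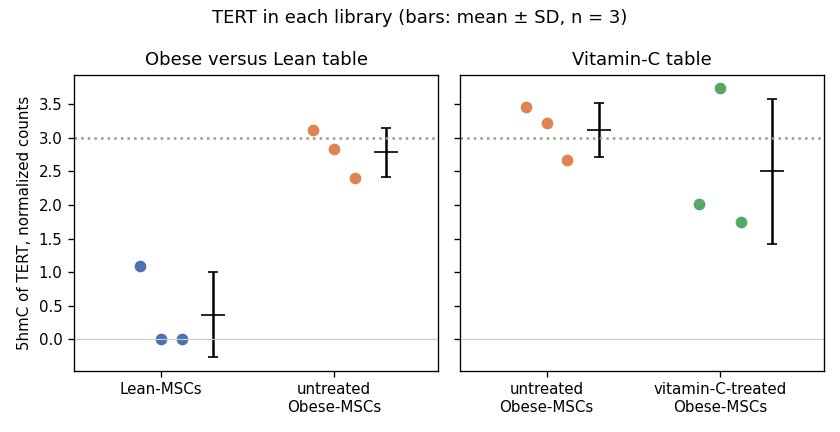
5hmC of TERT in normalized counts (vertical axis) for each library (points), with the mean ± SD of each group (n = 3) beside them. The left panel has Lean-MSCs and untreated Obese-MSCs, the right panel untreated and vitamin-C-treated Obese-MSCs, and the dotted line is 3 normalized counts. The Lean libraries lie between 0 and 1.10 and the Obese libraries between 2.40 and 3.12, while treated libraries at 1.75 to 3.74 overlap the untreated ones.

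With vitamin-C, TERT had 2.01, 3.74 and 1.75 normalized counts in treated libraries 4, 5 and 6, against 3.46, 3.22 and 2.67 in untreated libraries 1, 2 and 3 as normalized in that dataset. Treated library 5 had the highest value of all 6 and the other treated libraries the lowest, so the groups overlapped. The means were 2.50 ± 1.08 and 3.12 ± 0.408 (SD, n = 3 each; exact permutation test, p = 0.4). The treated libraries again held only about 2, 4 and 2 steps, and the untreated libraries about 4, 3 and 2. Leaving out treated library 5 made TERT meet the criteria as low with vitamin-C, which no other left-out library did. That call rested on treated libraries 4 and 6 at about 2 steps each, the same number of steps as untreated library 3. TERT lies on chromosome 16 from 79258591 to 79276421 in Sscrofa11.1, with no overlapping gene model.

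In shelterin, none of the 6 genes was called in Obese-MSCs against Lean-MSCs (4.5% of all genes were), and Obese and Lean libraries overlapped in each of them. The subunits TERF1 and TERF2 contact the double-stranded repeats directly. TERF2, which shields ends from being joined, had 8.48, 7.55 and 11.6 normalized counts in Obese libraries 1, 2 and 3 and 20.03, 9.92 and 9.28 in Lean libraries 7, 8 and 9. Lean library 7 stood above all others, and the other Lean libraries lay within the Obese range. The means were 9.22 ± 2.13 and 13.1 ± 6.03 (SD, n = 3 each), a log2 ratio of means of -0.50 (exact permutation test, p = 0.4), and without Lean library 7 the log2 ratio was -0.06. On the log2(value + 1) scale limma gave -0.40 ± 0.37 (SE), a 95% interval of -1.18 to 0.37 and an adjusted p-value of 0.886.

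TERF1, the other subunit that binds the double-stranded repeats, had 0.578, 5.76 and 2.40 normalized counts across the Obese libraries, against 5.56, 2.98 and 3.09 across the Lean ones. Obese library 1 was lowest and Obese library 2 highest, so the Obese spread enclosed the Lean libraries. TERF2IP (RAP1), which binds TERF2, had 1.47, 4.81 and 0.0802 across the Obese libraries, against 3.33, 2.98 and 0.0129 across the Lean ones. In each group 1 library was near 0. TERF2IP averaged 2.12 ± 2.43 (Obese) and 2.11 ± 1.82 (Lean; SD, n = 3 each), which is too low for a fold change, and TERF1 had an Obese mean of 2.91 ± 2.63 against 3.88 ± 1.46 (exact permutation test, p = 0.6 for TERF1 and p = 1 for TERF2IP).

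POT1, which covers the single-stranded overhang, had 5.93, 8.52 and 13.8 normalized counts across the Obese libraries, against 10.2, 7.93 and 15.4 across the Lean ones. The groups overlapped through most of their range, with means of 9.42 ± 4.02 and 11.2 ± 3.81 (SD, n = 3 each; exact permutation test, p = 0.6). ACD (TPP1), the partner of POT1 that recruits telomerase, had 4.68, 3.78 and 4.70 across the Obese libraries, against 2.39, 4.96 and 7.16 across the Lean ones. The Obese values of ACD lay inside the Lean range. The log2 ratios of means were -0.25 for POT1 and -0.14 for ACD. The 95% limma intervals on the log2(value + 1) scale ran from -1.06 to 0.56 for POT1 and from -1.06 to 1.00 for ACD, so that a 2-fold lower level in Obese-MSCs lay inside both.

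TINF2 (TIN2), the hub that joins the other shelterin proteins, had the most normalized counts of the 10 genes, a comparison not corrected for exon length. It had 148, 149 and 159 across the Obese libraries, against 122, 129 and 149 across the Lean ones. Lean library 9 reached the Obese range and the other Lean libraries lay below it. The means were 152 ± 5.88 and 133 ± 13.8 (SD, n = 3 each), a log2 ratio of 0.19 (exact permutation test, p = 0.3). limma gave TINF2 an interval of -0.19 to 0.58 and an adjusted p-value of 0.890, the narrowest interval of the 6 genes tested. The gene lies on chromosome 7 from 75056790 to 75067895 in Sscrofa11.1, and 7216 of its 11106 bases are also spanned by GMPR2, a guanosine monophosphate reductase gene with means of 20.7 in Obese-MSCs and 22.3 in Lean-MSCs. How reads in shared exons were divided between these genes is not given in the sources used here.

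Outside shelterin and TERT, none of the 3 genes met the criteria in Obese-MSCs versus Lean-MSCs. CTC1 had 21.6, 26.6 and 22.4 normalized counts across the Obese libraries, against 26.0, 29.8 and 21.6 across the Lean ones. The highest value was Lean and the lowest values of both groups were alike. Its means were 23.5 ± 2.66 and 25.8 ± 4.10 (SD, n = 3 each), with a limma 95% interval of -0.70 to 0.45 and an adjusted p-value of 0.965. The X-linked DKC1 had 6.34, 2.80 and 5.84 across the Obese libraries, against 8.89, 7.95 and 1.07 across the Lean ones. Lean library 9 was lowest and the other Lean libraries highest, and the log2 ratio of means of -0.26 changed sign with the library left out. It was -0.75 without Lean library 9, 0.15 without Lean library 7, 0.03 without Obese library 2 and 0.00319 without Lean library 8, and the limma difference on the log2(value + 1) scale was 0.02. RTEL1 had 2.23, 6.73 and 0.111 across the Obese libraries, against 2.33, 3.97 and 4.10 across the Lean ones. The Obese values of RTEL1 enclosed the Lean ones, and its log2 ratio lay between -1.57 and 0.37 when single libraries were left out. RTEL1 shares 1605 bases with TNFRSF6B and 45 with ARFRP1 on chromosome 17.

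**Figure D2:**
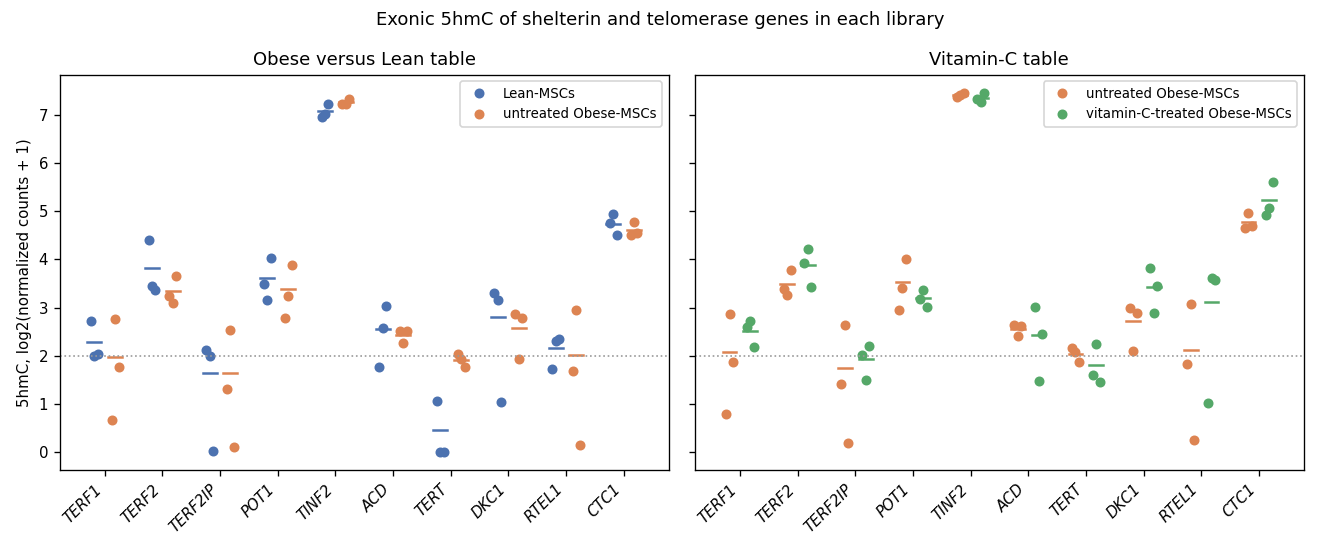
5hmC of the 10 genes as log2(normalized counts + 1) (vertical axis) in each library (points), with a bar at the group mean (n = 3, the mean taken before the logarithm). The left panel compares Lean-MSCs with untreated Obese-MSCs and the right panel untreated with vitamin-C-treated Obese-MSCs; the dotted line is 3 normalized counts. In the left panel only TERT has groups that do not overlap, and in the right panel no gene does.

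Between Obese-MSCs with and without vitamin-C, 0 of the 10 genes met the criteria and 0 had groups that did not overlap, where 1.92% of all genes met the criteria and 5.91% did not overlap. None had a p-value of 0.05 or less in the study's test, where 2.64% of all genes did. The highest log2 ratios of means were those of RTEL1, DKC1, TERF1 and CTC1. RTEL1 had 1.02, 11.2 and 10.9 normalized counts in treated libraries 4, 5 and 6 and 2.53, 7.38 and 0.183 in untreated libraries 1, 2 and 3. Treated libraries 5 and 6 were highest, but treated library 4 lay among the untreated ones. The means were 7.69 ± 5.78 and 3.37 ± 3.67 (SD, n = 3 each), a log2 ratio of 1.19 (exact permutation test, p = 0.3). The log2 ratio of RTEL1 lay between 0.63 and 2.50 when single libraries were left out.

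DKC1 had 13.1, 6.40 and 9.84 normalized counts in the treated libraries and 6.98, 3.28 and 6.41 in the untreated libraries. Treated libraries 4 and 6 exceeded every untreated library, and treated library 5 was just below 2 of them. The means were 9.77 ± 3.34 and 5.56 ± 1.99 (SD, n = 3 each), a log2 ratio of 0.81 (exact permutation test, p = 0.3). limma gave DKC1 a log2 difference of 0.72 ± 0.44 (SE) and an interval of -0.21 to 1.65. CTC1 had 29.2, 32.3 and 47.6 in the treated libraries and 24.1, 30.0 and 24.7 in the untreated libraries. Treated library 6 stood apart at the top, and untreated library 2 fell between treated libraries 4 and 5. The log2 ratio of CTC1 was 0.47, and 0.23 without treated library 6.

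In shelterin, TERF2 had 14.1, 17.7 and 9.72 normalized counts with vitamin-C against 9.46, 8.62 and 12.7 without, and TERF1 had 5.03, 5.57 and 3.52 against 0.744, 6.34 and 2.67. Both had overlapping groups, with log2 ratios of 0.43 for TERF2 and 0.54 for TERF1, and the latter was 0.06 without untreated library 1. TERF2IP had 3.02, 1.82 and 3.61 with vitamin-C and 1.67, 5.27 and 0.134 without. POT1 had 8.05, 9.28 and 7.11 against 6.75, 9.67 and 15.1, and ACD 7.04, 1.78 and 4.47 against 5.19, 4.31 and 5.17. For TERF2IP and POT1 the untreated spread enclosed every treated library, and for ACD the treated spread enclosed every untreated library. TINF2 had 160, 154 and 174 against 165, 168 and 175, with means of 162 ± 10.3 and 169 ± 4.93 (SD, n = 3 each) and a limma interval of -0.48 to 0.35. The exact permutation p-values of these 6 genes lay between 0.2 and 0.8.

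limma tested 6 of the 10 genes in Obese-MSCs versus Lean-MSCs and 7 in the vitamin-C comparison, RTEL1 passing the filter only in the second. None had an adjusted p-value of 0.05 or less (0 of 15146 and 0 of 15192 genes in all, or 0%), and unadjusted values of 0.05 or less were also absent, where 6.81% and 0.974% of all tested genes did. The smallest adjusted p-value among the 10 genes was 0.886 in the first comparison, and in the second all of theirs rounded to 1. Of the 10 genes, 3 had a higher and 7 a lower mean in Obese-MSCs, with a median log2 ratio of -0.17, while 50.6% of all genes were higher and their median was 0.01. With vitamin-C 6 were higher and 4 lower, with a median of 0.34 against 0.00 for all genes. With means of 3 or less set to 3, these medians were -0.17 and 0.21. Summed over the 6 shelterin genes, the libraries ran from 170 to 191 normalized counts in Obese-MSCs and from 158 to 184 in Lean-MSCs, and from 190 to 202 with and 189 to 211 without vitamin-C. TINF2 made up 81.9% and 83.6% of these sums. Summed over TERT, DKC1, RTEL1 and CTC1, the libraries ran from 30.8 to 39.0 in Obese-MSCs and from 26.8 to 41.7 in Lean-MSCs. With vitamin-C this sum ran from 45.3 to 70.1, above the 34.0 to 43.9 of the untreated libraries, although each of the 4 genes had overlapping groups. The sum over the 9 genes other than TINF2 likewise ran from 82.5 to 98.5 with and from 60.9 to 78.1 without vitamin-C, and overlapped between Obese-MSCs (54.4 to 69.4) and Lean-MSCs (61.7 to 79.9). Over all 10 genes the sum ran from 242 to 272 with and from 226 to 246 without vitamin-C, so the groups overlapped. The 5 shelterin genes without TINF2 also overlapped, at 28.4 to 37.2 with and 23.8 to 35.8 without. CTC1, with means of 36.4 with and 26.3 without vitamin-C, was the largest part of the sum over TERT, DKC1, RTEL1 and CTC1. These sums are descriptions without a test. The sum over 3 endothelial markers was lower with vitamin-C (162 to 195) than without (201 to 219). PECAM1 made up most of that sum and overlapped between groups (103 to 151 with and 146 to 163 without). CDH5 did not overlap (11.6 to 15.8 and 16.1 to 18.1), while VWF had a slightly higher mean with vitamin-C (38.8 against 37.4). The part of these markers in the values above was not tested.

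**Figure D3:**
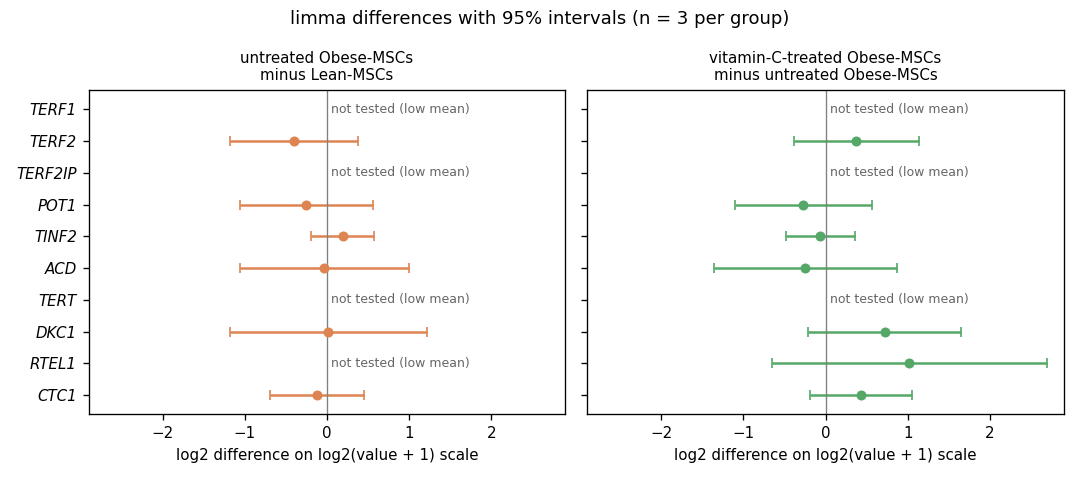
Differences fitted by limma on the log2(value + 1) scale (horizontal axis) with 95% intervals for each gene, n = 3 per group, for untreated Obese-MSCs minus Lean-MSCs (left) and treated minus untreated Obese-MSCs (right). Genes below the mean required for the fit are marked as not tested. Each interval spans 0; the narrowest is that of TINF2 (-0.19 to 0.58 on the left) and the widest that of RTEL1 (-0.65 to 2.69 on the right).

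The untreated Obese libraries had values 1.09 to 1.14 times as high in the second dataset as in the first for those of the 10 genes above 3 normalized counts, close to the median ratio of 1.10 to 1.13 over all genes. In the first and then the second comparison, the log2 ratios of means were -0.50 and 0.43 for TERF2, -0.13 and 0.47 for CTC1, and 0.19 and -0.06 for TINF2. POT1 (-0.25 and -0.37) and ACD (-0.14 and -0.14) were below 0 in both comparisons, but single libraries turned these signs. Without Lean library 9 the first value was 0.05 for POT1 and 0.25 for ACD, and without treated library 5 the second value was 0.23 for ACD. Because the comparisons share the untreated libraries on opposite sides, these pairs are values side by side and not a test of reversal.

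Among other telomere genes, 65 of the 67 listed were present, in 6 lists by role. Comparing Obese-MSCs with Lean-MSCs, 0 were called high and 2 low (3.08% in all), where 4.5% of all genes were called (2.43% as low). In 8 of them the groups did not overlap (6 with Obese-MSCs below), where 11.8% of all genes had such groups (6.06% with Obese-MSCs below). With vitamin-C 0 met the criteria, against 1.92% of all genes. Both genes with low 5hmC were in the list of telomerase assembly factors, where 2 of 14 met the criteria, and the median log2 ratio of the 12 with both means above 3 was -0.11. All of the 65 had adjusted p-values above 0.05 in limma where tested.

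PINX1, a TERF1-binding protein known as an inhibitor of telomerase, had low 5hmC in Obese-MSCs. It had 10.2, 7.55 and 9.41 normalized counts in Obese libraries 1, 2 and 3 and 25.8, 16.9 and 20.5 in Lean libraries 7, 8 and 9. Every Obese library was well below every Lean library. The means were 9.05 ± 1.35 and 21.1 ± 4.50 (SD, n = 3 each), a log2 ratio of -1.22 that lay between -1.36 and -1.05 when single libraries were left out. limma gave PINX1 -1.12 ± 0.32 (SE), with a p-value of 0.668 once adjusted over all genes (exact permutation test, p = 0.1). With vitamin-C it had 5.04, 14.9 and 9.83 against 11.3, 8.62 and 10.4 without. The treated libraries of PINX1 spread on both sides of the untreated ones, with a log2 ratio of -0.02. PINX1 lies on chromosome 14 from 13965733 to 14041841.

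SHQ1, an assembly chaperone of DKC1, was the other gene with low 5hmC. It had 8.42, 9.47 and 11.7 normalized counts across the Obese libraries, against 15.9, 18.9 and 15.4 across the Lean ones, again with no overlap. The means were 9.85 ± 1.65 and 16.7 ± 1.88 (SD, n = 3 each), a log2 ratio of -0.76 with a range of -0.90 to -0.66 when each library was left out. The limma adjusted p-value of SHQ1 was 0.704 (exact permutation test, p = 0.1). With vitamin-C SHQ1 had 14.1, 16.8 and 5.17 against 9.43, 10.7 and 12.8 without, so that treated libraries were both the highest and the lowest. It lies on chromosome 13 from 54073012 to 54180759.

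In the other 5 lists no gene met the criteria in Obese-MSCs versus Lean-MSCs, and the gene with the largest log2 ratio is given for 4 of them. These values were 0.79 for the primase subunit gene PRIM1, -0.50 for NBN of the MRN break-sensing complex, 0.66 for the histone chaperone gene DAXX and 0.74 for MEN1, which encodes menin. Of these 4 genes, NBN alone had groups that did not overlap. The means of NBN were 6.94 ± 1.25 (Obese) and 9.80 ± 1.51 (Lean; SD, n = 3 each), with a limma adjusted p-value of 0.872.

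With vitamin-C, the largest log2 ratio in each list was 1.08 for RUVBL1, an ATPase needed for telomerase assembly, 0.49 for the flap endonuclease gene FEN1, 1.07 for ZBTB48, which binds telomeric repeats, -0.27 for the chromatin remodeler gene ATRX, -0.44 for the checkpoint kinase gene CHEK1 and -0.57 for the transcription factor gene SP3. All had overlapping groups. RUVBL1 had 5.03, 11.2 and 5.29 normalized counts in the treated and 0.742, 2.18 and 7.25 in the untreated libraries. ZBTB48 had 1.02, 7.40 and 13.7 against 3.44, 3.23 and 3.87, so the treated libraries spanned values below and above every untreated library.

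**Figure D4:**
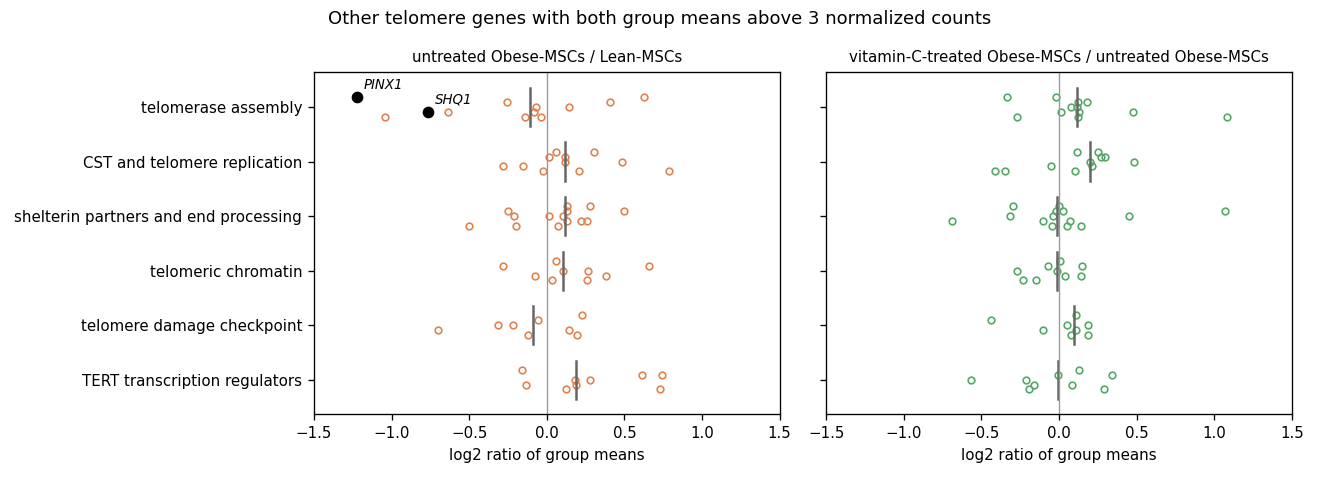
Log2 ratios of group means (horizontal axis) for other telomere genes in 6 lists (rows), for untreated Obese-MSCs over Lean-MSCs (left) and treated over untreated Obese-MSCs (right), limited to genes with both group means above 3 normalized counts. Open points are genes that did not meet the criteria, filled points those that did, and the vertical bars are list medians. The filled points are PINX1 at -1.22 and SHQ1 at -0.76 in the left panel, and the right panel has none.

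In Obese-MSCs versus Lean-MSCs, the member with the largest log2 ratio among those with both means above 3 was TERF2, and the genes whose 6 values were most like it on the log2(value + 1) scale were CENPA, RABGEF1 and UBE2R2, with Pearson's r of 0.991, 0.990 and 0.989. In the vitamin-C comparison it was RTEL1, and the most similar genes were LOC102168165, DCAF17 and DOC2A, with r of 0.992, 0.991 and 0.989. An r of at least 0.95 was reached by 25 of 15145 genes and by 52 of 15191 genes. These correlations are over 6 libraries with the groups included and are given as descriptions.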

How the data were processed

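hMeDIP-seq libraries of 9 swine MSC cultures in 3 groups of 3 were analysed. Per the labels and the study's methods, the authors aligned paired reads with Bowtie 2 (2.3.3.1) to susScr 11.1, removed duplicates with Picard (1.67), counted exonic reads per gene with htseq-count (0.9.1) and processed the counts with edgeR (3.28.1). The deposited values are a normalized signal per gene, called normalized counts here, fractional and never negative. Whole reads could not be recovered for nearly all genes, so no count test was run and no counting interval is given. The libraries of each dataset were normalized together, so groups were compared only within a dataset. In the vitamin-C dataset 645 values of numerical residue below 1e-06 were set to 0.

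The study's criteria (see the results) were applied to all genes. Calls, p-values and shares of genes under these criteria were recomputed here. In Obese-MSCs versus Lean-MSCs they gave fewer calls than the paper reports. limma 3.58.1 (R 4.3.3) was fitted with a trend to log2(value + 1) over the upper 80% of genes by mean, with Benjamini-Hochberg adjustment over all tested genes. The pseudocount of 1 reduces the differences of low genes. Exact permutation tests were two-sided over 20 arrangements, with a smallest p-value of 0.1. Other steps used Python 3.11.15, numpy 2.4.6, pandas 2.3.3, scipy 1.17.1 and matplotlib 3.10.9. The procedure was tested on simulated whole counts, with changes placed only in genes above the median mean. That test does not cover low genes such as TERT. The labels do not say whether treated and untreated cultures share animals, so p-values measure the spread between libraries.

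The 10 genes and the lists of related genes were chosen with earlier results of these data known. All 10 genes are described. From each list of related genes, those that met the criteria with both group means above 3 normalized counts are named, and otherwise the one with the largest log2 ratio. Similarity is Pearson's r with the member of largest log2 ratio among those with both means above 3. Alternatives were another scale, variance model, p-value or fold threshold, pseudocount, filter or normalization, and each library left out. H2AX and CDKN2A were not analysed here, and 1 named gene is not reported here. Positions are from RefSeq for Sscrofa11.1. Exon lengths and sequences were not used here, so levels were not compared between genes per length.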

Additional observations from a re-analysis of the deposited data

How the results depend on the processing

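TERT met the study's criteria in Obese-MSCs versus Lean-MSCs with each library left out in turn (1 to 1 of the 10 genes) and under the alternatives for scale, variance, thresholds and normalization, but with only the upper 80% of genes by mean 0 of the 10 genes met them, because TERT lies below that filter. With vitamin-C, between 0 and 1 of the 10 genes met the criteria with each library left out, the 1 being TERT as low without treated library 5, and 0 under the other alternatives. Among related genes, the count of 2 in Obese-MSCs became 1 (SHQ1) at a p-value threshold of 0.01 and between 3 and 4 with a library left out, with 4 without Lean library 7. PINX1 and SHQ1 were among the called genes in every left-out run. The genes added in those runs were TGS1, WT1, FEN1 and ASF1A as high and RUVBL1, ZBTB48 and NBN as low. With no fold threshold the count was 3, with SMG6 added as high. With vitamin-C the count of related genes was 0, 1 (RAD50, low) when tested on log2(value + 1), and between 0 and 2 with a library left out, with 1 without treated library 4 and 2 without untreated library 3. No gene of the 10 passed limma under any alternative tried. The median log2 ratio over the genes with both means above 3 was -0.20 in Obese-MSCs (between -0.20 and -0.06 with a library left out) and 0.45 with vitamin-C (between 0.22 and 0.45). The sign of the log2 ratio turned, with no call involved, under at least 1 alternative for POT1, ACD, DKC1 and RTEL1 in Obese-MSCs and for ACD with vitamin-C. No paired analysis was made. The groups share no replicate numbers, and which treated and untreated cultures share an animal is not given in the sources used here. Any pairing between them was therefore left unused. Values are a few normalized counts for TERT, TERF1, TERF2IP, RTEL1 and ACD, which limits what could be detected for them.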
